A study of Bos taurus with 12 samples.

Results

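The 21 tiles described here lie at the glycine N-acyltransferase genes on chromosome 15, and they were taken from 7290 tiles of 500 bp listed in the authors' deposited table of sperm DNA methylation differences. A tile was included when it lay on chromosome 15 and its annotation described glycine-N-acyltransferase. The genes were selected on their deposited differences and q-values from the one comparison the table holds, so all counts and values below are a description, and no test was made on them. The samples were sperm of bulls (Bos taurus), 6 labelled low BFI and 6 labelled high BFI, profiled by enzymatic methylation sequencing, in which enzymes in place of bisulfite mark the unmethylated cytosines. The series ties the methylation of bull sperm to fertility. The labels give no breed, age or treatment, do not spell out BFI, and do not say whether each sample is a different bull. Positions are those of the deposited table, for which the submitters' processing notes name the assembly ARS-UCD1.2 (bosTau9).

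Glycine N-acyltransferase, the product of GLYAT, is a mitochondrial enzyme that joins an acyl group, carried on coenzyme A, to the amino acid glycine. It is known from liver and kidney, where it turns benzoate and related acids into glycine conjugates such as hippurate for excretion. Medium-chain acyl-CoA synthetases of the ACSM family supply the activated acids. In mammals GLYAT and several GLYAT-like genes lie side by side as a family of related copies, and the description above is of GLYAT only. Sperm DNA is in general highly methylated outside CpG islands, and the table gives differences between the groups only, so the level at each tile is not known here.

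The tiles belong to 2 genes. GLYAT (ENSBTAG00000038323, NCBI gene 281787), which encodes glycine N-acyltransferase itself, has 12 tiles. A gene that the table describes as glycine-N-acyltransferase-like (ENSBTAG00000052095) has the other 9. Its NCBI number, 280801, carries the symbol GAT in RefSeq's ARS-UCD2.0 gene table, and it is called GAT here. Both genes are annotated on the minus strand, so lower coordinates lie further along in the direction of transcription. The tiles overlap one another and form 5 separate stretches that together cover 4100 bp. These genes are related in sequence, and whether reads were placed between them was not tested, so values at single genes are uncertain to that extent.

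At GLYAT the deposited difference was negative in all 12 tiles, and its size differed between the 3 stretches of the gene. Differences are in percentage points throughout. Tiles beyond the exon on the 3′ side stood between -11.2 and -8.09 percentage points, intronic tiles between -4.25 and -3.91, and tiles behind the 5′ UTR between -1.02 and -0.52, all in the authors' deposited table. At GAT the signs were split by position. The 4 tiles over its 5′ UTR were positive, with 5.03 to 7.21 points in the authors' deposited table, and the 5 tiles upstream of it were negative and small, from -1.95 to -0.74. The headers and labels do not state which group was subtracted from which, so no group can be called the more methylated.

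**Figure D1:**
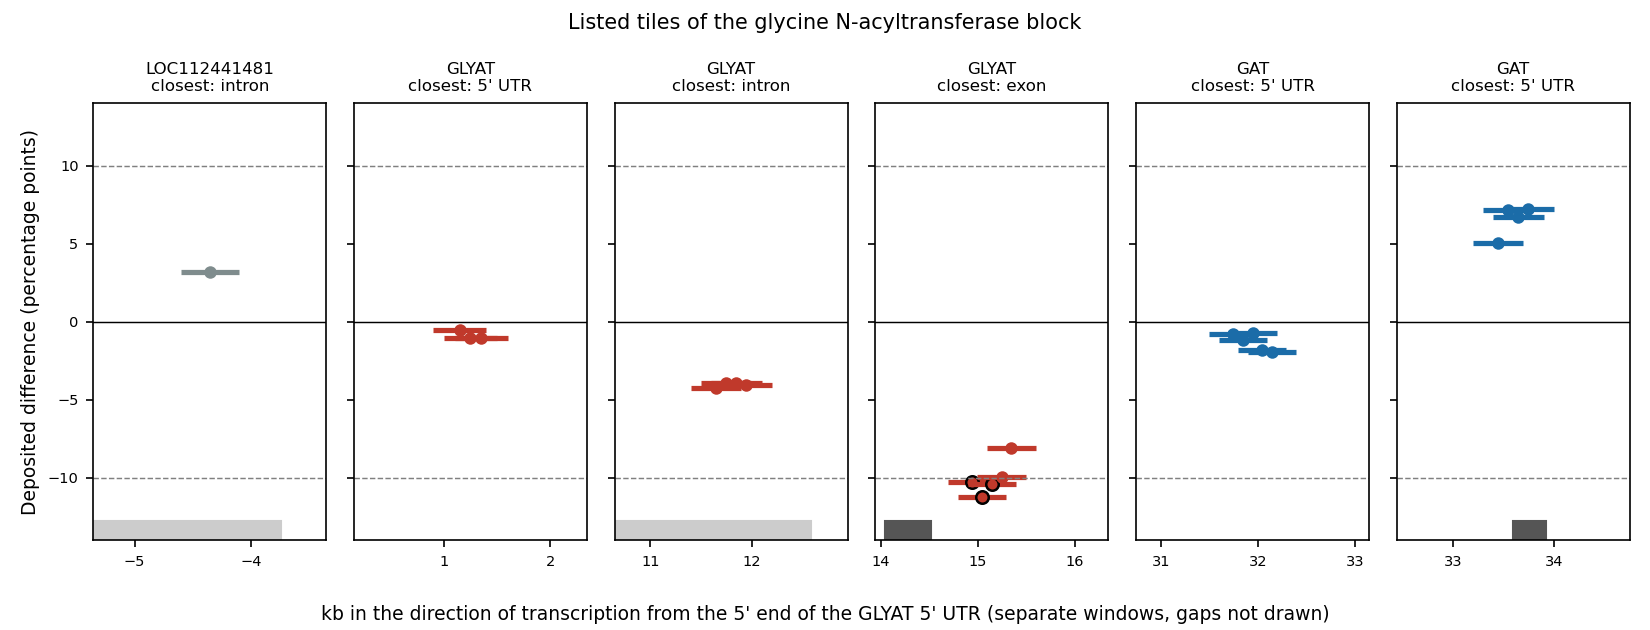
Deposited methylation difference (y axis, percentage points) of the 21 tiles of GLYAT (red) and GAT (blue) and of 1 tile of LOC112441481 (grey), against the distance in kb along the direction of transcription from the 5′ end of the GLYAT 5′ UTR (x axis, 1 window per stretch). Horizontal bars span each tile, and black rims mark the 3 tiles past 10 percentage points at a q under 0.05. Dashed lines mark 10 percentage points. Dark (UTR or exon) and light (intron) bars at the foot mark the annotated feature where it falls inside the window. The windows upstream of the GAT 5′ UTR and behind the GLYAT 5′ UTR hold no such bar. All GLYAT tiles lie below 0 and the 4 GAT tiles over the 5′ UTR lie above it.

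The largest differences lay beyond the 3′ side of an exon of GLYAT. That exon, of rank 6 in its transcript, runs from 82127678 to 82128145, and the 5 tiles between 82126601 and 82127500 are classed as downstream of it. This stretch is called the 3′ flank of GLYAT below. Whether the exon is the last of the gene was not checked, so the name does not place the stretch outside GLYAT. In the authors' deposited table the tile nearest to the exon, which starts at 82127001 and leaves 177 bases between, differed by -10.2 points (q = 1.78e-18). The next tile, starting at 82126901, is listed in the authors' deposited table with the lowest value of the 21, -11.2 points (p = 6.01e-23, q = 2.85e-22). Further out, the authors' deposited table has -10.4 points (q = 4.69e-22) for the tile starting at 82126801. Those 3 tiles reached 10 percentage points. Past them the difference was smaller in size, at -9.91 in the tile starting at 82126701 and -8.09 in the one starting at 82126601, 577 bases from the exon, both in the authors' deposited table. The outermost tile had a q of 1.69e-13 there.

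A tile was counted when its deposited q was under 0.05 and its difference at least 10 percentage points in either direction. Of the 21 tiles 3 were counted, all negative and all at the 3′ flank of GLYAT, against 2.78% of all listed tiles (203 of 7290) and 2.63% counted with a negative sign. The 3 overlap: they span 700 bp, from 82126801 to 82127500, and share the 300 bases from 82127001 to 82127300, so they are 1 place and not 3. The contrast is the one by which the genes were picked, and the count is not evidence of an excess. Chromosome 15 as a whole had 11 counted tiles of 244 (4.51%). At the level of genes, 19 of the 540 with an ID in the table had a counted tile (3.52%), GLYAT among them and GAT not.

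Within GLYAT, 4 tiles from 82130001 to 82130800 lay wholly in an intron that runs from 82129611 to 82131676. Their differences in the authors' deposited table were close together: the median was -3.97 points, and q-values ran from 0.00151 to 0.00522. Of 727 listed tiles that overlapped an intron, 28.3% had a difference at or below the highest of these 4, so intronic values of this size were frequent in the table. The stretch is separated from the one at the 3′ flank by 2500 bp without a listed tile.

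The last GLYAT stretch, 3 tiles from 82140601 to 82141300, lay 820 to 1020 bases on the 3′ side of a 5′ UTR at 82142121 to 82142196, between that UTR and the intron above. In the authors' deposited table the lower pair both had -1.02 percentage points (q = 0.0419) and the tile next to the UTR had -0.52 (q = 0.100). None of the 3 had a p under 0.05. The pair shows identical p-values and differences, although each tile holds 100 bases that the other does not.

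GAT carried the positive values. Its 5′ UTR runs from 82108274 to 82108601, and 4 tiles from 82108201 to 82109000 overlap it by 101 to 328 bases. The tile that contains all 328 bases of the UTR, from 82108201 to 82108700, is listed in the authors' deposited table with the highest value of the 21, 7.21 points (q = 1.05e-09). The tile starting at 82108401 stands in the authors' deposited table with 7.15 points (q = 2.56e-10) and that starting at 82108301 with 6.73 (q = 5.83e-09). The lowest of the 4 was the one that reaches furthest upstream, from 82108501 to 82109000, for which the authors' deposited table has 5.03 points (q = 1.41e-05). All 4 values exceed 5 percentage points and none reaches 10.

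Upstream of the same UTR, after 800 bp without a listed tile, the sign was the opposite. These 5 tiles, from 82109801 to 82110700, are classed as promoter and lie 1199 to 1599 bases from the UTR. Nearest to the UTR, the authors' deposited table has -1.95 points (q = 0.000888), followed by -1.77 (q = 0.00106). For the 3 tiles further upstream the authors' deposited table has -0.74 (q = 0.0483), -1.16 (q = 0.0222) and -0.76 (q = 0.0607), and each of these 3 had a p above 0.05. Of the 169 promoter-classed tiles closest to a 5′ UTR, 20.1% were at or below -1.95 percentage points.

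Set beside tiles of the same class, the values over the GAT 5′ UTR and at the GLYAT 3′ flank lay outside the 5th to 95th percentile of their class, and the others did not. Over the 170 listed tiles that overlap a 5′ UTR the median was -0.02 percentage points, and 51.8% were negative. The highest value among the 166 of them that are not GAT tiles in the authors' deposited table was 2.11 points, below all 4 of GAT. The GAT tile at 7.21 was also the highest of the 244 listed tiles on chromosome 15. Among 680 tiles classed as downstream of a gene feature (CpG islands left out), the median was -0.77 percentage points and 12 were counted, 3 of them at GLYAT. This class is broader than the GLYAT 3′ flank, whose tiles lie 177 to 577 bases from an exon without overlap. It takes in features of any kind, tiles that overlap their feature, such as the GAT tile at 7.21, and tiles up to 9949 bases away. The lowest GLYAT value was the ninth lowest of that class, and 95 of all 7290 listed tiles were at or below it. These ranks describe the list and were not tested.

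**Figure D2:**
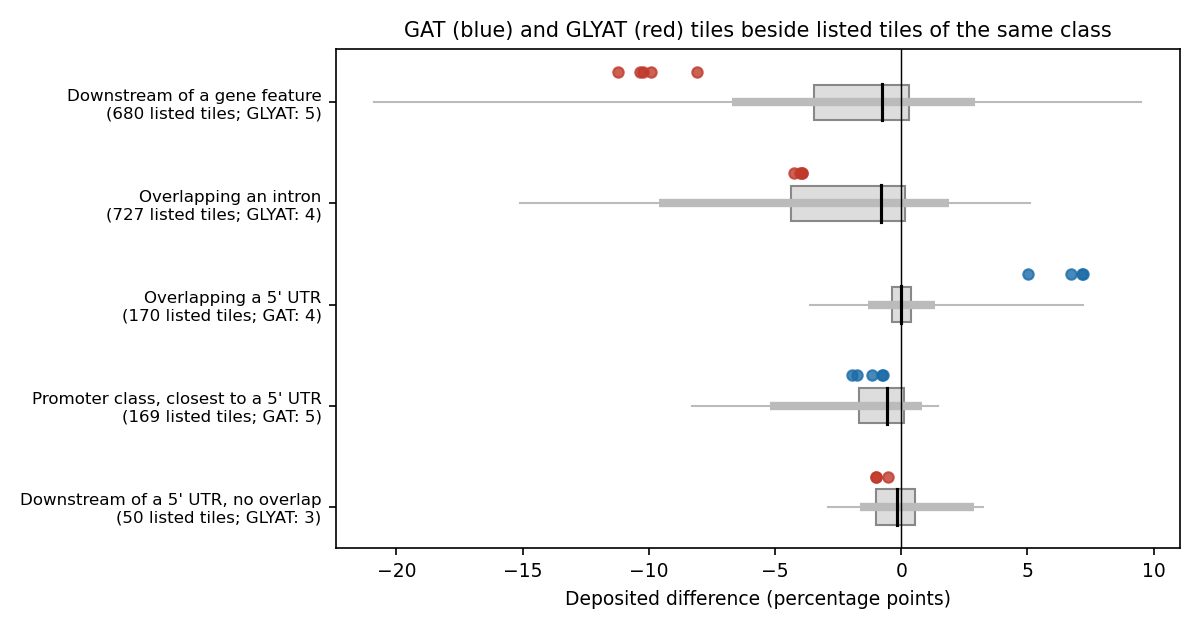
Deposited difference (x axis, percentage points) of the GAT (blue) and GLYAT (red) tiles, drawn as points above the spread of all listed tiles of the same class (grey: thin line, full range; thick line, 5th to 95th percentile; box, quartiles; black bar, median). The 4 GAT tiles over the 5′ UTR mark the top of their class, from 5.03 to 7.21, and the 5 GLYAT tiles downstream of the exon lie from -11.2 to -8.09, while the remaining points lie within the 5th to 95th percentile; the class in the top row includes the tiles of the bottom row.

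By sign, 17 of the 21 tiles were negative (81.0%), against 71.6% of all listed tiles and 85.2% on chromosome 15. By feature, all 5 tiles closest to an exon and all 4 in an intron were negative, and of the 12 closest to a 5′ UTR 8 were negative and 4 positive. The median difference was -1.77 percentage points over the 21 tiles, -4.13 over those of GLYAT and -0.74 over those of GAT, against -0.95 over all listed tiles. Within GAT the sign turned between stretches 800 bp apart.

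At any size of difference, 19 of the 21 tiles had a deposited q under 0.05, against 71.8% of all listed tiles. They comprised 15 negative and 4 positive tiles, where 55.9% of all listed tiles passed with a negative and 15.9% with a positive sign. The deposited q lay below the deposited p in 14 of the 21, and 4 tiles passed the q although their p was above 0.05: 2 upstream of GAT and the identical pair of GLYAT. The same held for 441 of the 7290 listed tiles (6.05%). With the deposited p-values adjusted by Benjamini-Hochberg over all listed tiles, 15 of the 21 passed, against 62.5% of all listed tiles. The 4 that were lost are those with a p above 0.05. All 9 tiles at the GLYAT 3′ flank and over the GAT 5′ UTR passed either way.

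**Figure D3:**
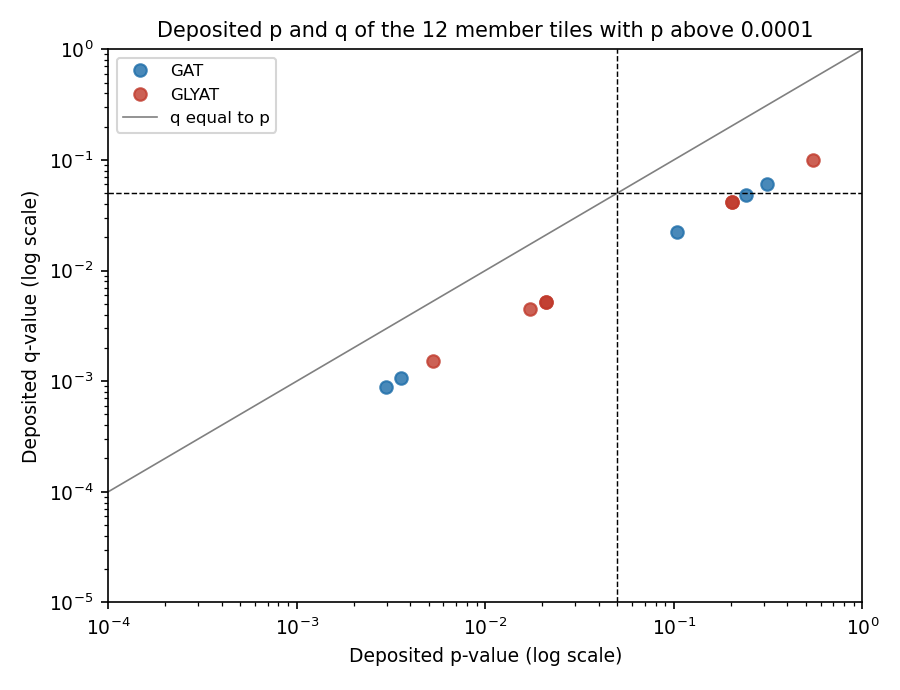
Deposited q-value (y axis, log scale) against deposited p-value (x axis, log scale) of the 12 tiles of GAT (blue) and GLYAT (red) with a p above 0.0001, with the line of equal values and dashed lines at 0.05. All 12 lie below the line, and 4 lie under a q of 0.05 with a p above 0.05; 2 pairs of GLYAT tiles have identical values and are drawn on one another.

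Other glycine conjugation genes were looked up in the table. Only 540 genes have an ID there, so the absence of a gene says little about the list. From a list of 12 genes (GLYAT, GLYATL1 to GLYATL3, the bile acid conjugating enzyme BAAT and 7 acyl-CoA synthetases of the ACSM family), only GLYAT was matched to a listed tile. Genes were matched by symbol or by the wording of their description, which 463 of the 540 genes with an ID carry, so a member among the 77 genes without one would be missed. The remaining 11 genes of the list were not analysed here. GLYAT is there by the rule that chose the tiles. The list leaves out GAT and the gene described next, which also have listed tiles. The next gene in the cluster on the 5′ side of GLYAT, LOC112441481 (ENSBTAG00000012540), which by its description transfers phenylacetyl groups to glycine, had 1 tile within an intron. In the authors' deposited table that tile, from 82146301 to 82146800, differed by 3.20 points (q = 1.28e-05). It lies in the same run of tiles as GLYAT and GAT, where gaps are at most 50000 bp, but its description does not name glycine-N-acyltransferase and it is not among the 21.

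Outside that run, the nearest listed tiles on chromosome 15 lay 133500 bp below and 507300 bp above it. Those below, 3 tiles at a gene without a name in the table (ENSBTAG00000045939), are given differences of 0.61 to 1.47 points in the authors' deposited table. Those above, 3 tiles at the olfactory receptor gene OR5A1, had -2.45 to -1.87. None of these 6 was counted. Among 214 other genes with a description and at least 3 listed tiles, the lowest, median and highest differences of PDE5A, the cGMP-hydrolysing phosphodiesterase, were nearest to those of GLYAT. In the authors' deposited table PDE5A had -10.3, -4.33 and -0.08 percentage points over 70 tiles, at a Euclidean distance of 0.98. The taste receptor gene TAS2R1 (distance 3.26) and an olfactory receptor gene described as 7A17 (distance 3.62) came next. This likeness rests on 3 values from 1 comparison of the same 12 samples.

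No column of the table belongs to a single sample, so the value in each sample and the spread between samples could not be given. Depth is unknown, and the p-values do not follow the size of the differences alone: the intronic GLYAT tile starting at 82130001, at -4.02 percentage points, had a p of 0.0172, and the GAT tile starting at 82109801, at -1.95, had a p of 0.00297, both in the authors' deposited table. The label sperm could not be checked, since a difference between groups does not show a cell type. Marker genes were looked up in the same way among the 540 genes with an ID. Of these markers, 0 of 5 germ cell, 0 of 4 leukocyte and 0 of 4 epithelial and accessory gland genes were matched to a listed tile.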

How the data were processed

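The authors' deposited table was read as it stands. Per the file headers its columns hold the p-value, the q-value and the difference of the group comparison per tile, the last read as percentage points, and the closest annotated feature. Trimmomatic, Bismark and methylKit, and the builds ARS-UCD1.2 and bosTau9, come from the submitters' processing notes, which add no versions or roles. The choice of the listed tiles, and any allowance of the authors' test for the spread between samples, are not given in the sources used here. Tiles are 500 bp on a grid of 100 bp. Deposited distances run from the start of the tile, so the bases between tile and feature were computed from their nearest edges; 1 tile classed as downstream overlaps its 5′ UTR, and 597 of the 1888 tiles of that class, CpG islands included, overlap their feature. Introns whose start lay above their end had the edges swapped. Symbols came from RefSeq's ARS-UCD2.0 gene table through NCBI gene numbers, used for names and gene order only; the 3 genes of the run all matched. TAS2R1 and PDE5A are named from their descriptions. The groups were not tested anew. Named genes are those of the 21 tiles, those with tiles in the same run, the nearest on either side and the 3 likest to GLYAT. The members and lists were chosen with earlier results of these data known. Benjamini-Hochberg adjustment was tested on simulated data. The tools were pandas 2.3.3, matplotlib 3.10.9, SciPy 1.17.1 and NumPy 2.4.6 under Python 3.11.15.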

Additional observations from a re-analysis of the deposited data

How the results depend on the processing

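With a minimum difference of 5 percentage points, 9 of the 21 tiles were counted, 5 negative at GLYAT and 4 positive at GAT (42.9%, against 15.4% of all listed tiles). The 5 overlap one another at the GLYAT 3′ flank and the 4 do so over the GAT 5′ UTR, so the 9 are not separate places. The genes were picked on this contrast, and the share is not evidence of an excess. With a minimum of 15, 0 were counted, against 0.384% of all listed tiles. The 3 counted tiles stayed 3 with a deposited q under 0.01 and with Benjamini-Hochberg adjustment. At any difference, 15 tiles passed under each of these, and they were the same 15, against 59.7% of all listed tiles at a q under 0.01 and 62.5% with Benjamini-Hochberg adjustment. Counting one tile per stretch without shared bases, 4 of 5 were negative (80.0%), with a median of -1.95 percentage points. No paired analysis was possible because the groups share no replicate numbers and the table has no columns per sample, and for the same reason no sample could be left out.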

Other observations

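Neighbouring tiles that share bases had identical p-values and differences in 2 of 16 pairs at these genes (12.5%), 1 in the GLYAT intron and 1 behind its 5′ UTR, against 232 of 5815 such pairs in the whole table (3.99%). The number of cytosines measured in each tile was not used here.

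RefSeq's ARS-UCD2.0 gene table lists a protein-coding gene without a descriptive name, LOC132342276, between GAT and GLYAT, and it overlaps GLYAT there. The deposited table names no such gene, and the counted tiles at the 3′ flank of GLYAT lie on that side. Builds differ, so whether those tiles fall within LOC132342276 was not tested. The same table places GLYATL2 beyond LOC112441481, and that gene had no listed tile.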
